A study of Mus musculus with 6 samples.

Results

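Integrins, selectins and the adhesion molecules that they bind were examined as a set of 36 mouse genes: 16 integrin alpha chains, 8 integrin beta chains, 2 selectins and the selectin ligand Selplg, 7 ligands and junction molecules of the immunoglobulin family, the hyaluronan receptor Cd44 and the tetraspanin Cd9. Members were found by name. Every probe that was not a control and carried a member's symbol was taken, which gave 81 of 56605 probes for 36 of 37074 named genes, and the rule uses no measured value. RNA came from 3 kinds of bone marrow culture of female C57BL/6J mice aged 6 to 8 weeks, with 2 arrays for each kind. For 6G- BM-MDSC, the marrow was first depleted of Ly-6G+ cells on magnetic beads and then kept 4 days in granulocyte-macrophage colony-stimulating factor (GM-CSF) at 40 ng/mL, on tissue-culture-treated dishes. MDSC (conv.) were made from whole marrow in the same 4 days and at the same dose. DCs were grown 8 days with GM-CSF at 20 ng/mL on non-treated dishes. Myeloid-derived suppressor cells (MDSC) are immature myeloid cells that restrain T cells, and all 3 cultures share the cytokine, so no group is free of GM-CSF. Dose, days in culture and dish differ together between either MDSC culture and DCs and cannot be told apart. The labels do not say whether the 2 samples of a group came from separate cultures or animals, so the p-values measure only the spread between these samples.

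Integrins are pairs of an alpha and a beta chain that span the membrane and bind matrix or partner molecules on other cells once signals from inside the cell have switched them on. Myeloid cells are known for the beta 2 integrins, in which Itgb2 pairs with Itgal, Itgam or Itgad, while Itgb1, Itgb3, Itgb5 and Itgb7 serve matrix binding, uptake of dying cells and homing. Selectins catch the sugars on Selplg and so let leukocytes roll, and Icam1, Icam2 and Vcam1 then hold the cells through integrins.

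The signal of a gene is given here as the log2 of its processed array intensity minus the log2 of the 75th percentile of the same array, so that 0 stands for a probe at that percentile. Each gene was represented by its brightest probe, and levels of different genes are not set against each other because each probe has its own response. The percentile lay between 560.2 and 633.3 intensity units, and 55.6% to 59.9% of the probes of an array were well above background. Both MDSC groups lay in row 1 of the slide and DCs in row 2, so row and the comparison with DCs cannot be told apart. As a check of the labels, Ly6g was higher than in DCs by 3.85 (SE 0.11) in 6G- BM-MDSC and by 4.02 (SE 0.11) in MDSC (conv.), and Ciita, the regulator of MHC class II genes, was lower, with log2 differences of -2.14 (SE 0.17) in 6G- BM-MDSC and -1.63 (SE 0.17) in MDSC (conv.). Between the MDSC cultures, whose labels differ by the depletion of Ly-6G+ cells, Ly6g read 1.71 and 1.86 in 6G- BM-MDSC, against 1.95 and 1.96 in MDSC (conv.), a difference of -0.17 that did not pass (SE 0.11, limma, adjusted p = 0.626).

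Both MDSC cultures differed from DCs in a mixed way, with Itgb3, Itga8, Selp, Jam2, Icam2 and Vcam1 higher by at least 2-fold and Itgb7 and Itgad lower. Of the 36 genes, 30 were well above background on both arrays of at least 1 group and were tested, 26 were above background on all 6 arrays, and 4 on none. In 6G- BM-MDSC against DCs, 10 of the 30 were higher and 5 lower (limma, Benjamini-Hochberg adjusted p under 0.05 over 21860 genes), beside 15.0% of all genes called higher and 17.8% called lower. In MDSC (conv.) against DCs, 11 were higher and 7 lower, beside 13.4% and 15.8% of all genes. Before adjustment, p was under 0.05 for 21 of 30 in 6G- BM-MDSC, beside 46.0% of all genes in either direction, and for 22 of 30 in MDSC (conv.), beside 42.4%. At 2-fold or more, 6 were higher and 2 lower in each comparison, beside 5.36% and 4.58% of all genes in 6G- BM-MDSC and 5.32% and 3.77% in MDSC (conv.). With normexp background correction, a setting combined with the 2-fold minimum after seeing the data, 5 were higher (Itgb3, Icam2, Vcam1, Selp and Jam2) and 1 lower (Itgb7) in 6G- BM-MDSC, beside 2.83% and 2.53% of all genes, and 3 higher (Itgb3, Icam2 and Vcam1) and 1 lower (Itgb7) in MDSC (conv.), beside 2.86% and 2.22%. Itga8, Itgb8 and Itgad entered the test through the groups in which they were high, so a difference was built into their selection, and their p-values rest in part on values not above background. Without these 3, of the other 27 genes 9 were higher and 4 lower in 6G- BM-MDSC, and 9 higher and 6 lower in MDSC (conv.). Since both comparisons use the same DC arrays, their shared calls are a description: 9 genes were called higher in both, 5 lower in both, and 11 were called in neither. The median difference over the 30 genes was -0.01 in 6G- BM-MDSC and -0.11 in MDSC (conv.), beside -0.04 and -0.03 over all genes. In 6G- BM-MDSC against DCs, all arrays of the culture lay above the DC arrays for 12 of the 30 genes and below them for 13. In MDSC (conv.), 12 genes lay above and 12 below. The share of all genes whose arrays lay apart in this way was not computed, so these counts are not read as a result about the set.

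These counts were sensitive to single arrays. For 6G- BM-MDSC against DCs, leaving out 6G- BM-MDSC replicate 2 gave 6 genes higher and 3 lower, and leaving out DCs replicate 2 gave 2 lower. For MDSC (conv.) against DCs, there were 6 higher and 3 lower without MDSC (conv.) replicate 1, 5 higher and 4 lower without MDSC (conv.) replicate 2, 7 higher without DCs replicate 1, and 3 lower without DCs replicate 2. In each comparison 8 calls were kept whichever single array was left out, among 15 calls in 6G- BM-MDSC and 18 in MDSC (conv.). Itgb3, Itga8, Icam2, Vcam1, Jam2, Itgb7 and Itgad were so in both, joined by Pecam1 in 6G- BM-MDSC and Itgae in MDSC (conv.). For Itga8 and Itgad this adds no support, since they were selected through the groups in which they were high. Their readings in the groups set against these were not above background. In bulk RNA, fewer cells of a type and less RNA per cell cannot be told apart, and this holds for every difference given here.

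**Figure D1:**
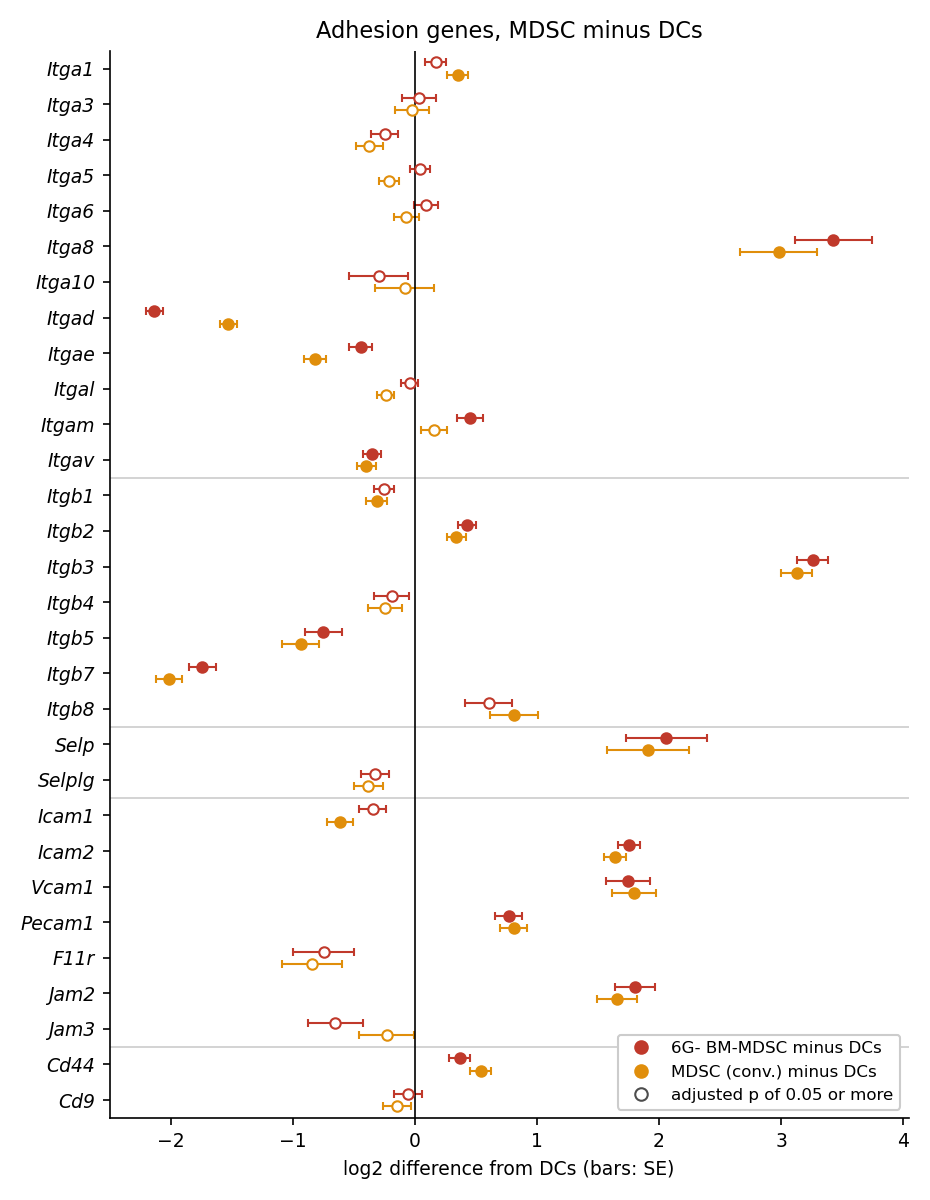
Log2 difference from DCs (x axis) of the 30 tested adhesion genes (rows, grouped by role), for 6G- BM-MDSC minus DCs (red, upper point of each row) and MDSC (conv.) minus DCs (orange, lower point). Bars are the SE of the fit with 2 arrays a group, filled points have an adjusted p under 0.05, and Itgb3, with 3.26 and 3.13, and Itga8 lie farthest to the right while Itgb7 and Itgad lie farthest to the left (Itga8 and Itgb8 were not well above background in DCs, nor Itgad in either MDSC culture, so their points rest on measured means).

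The DNA just before 4 of these genes is printed because they stand for the different patterns: Itgam, which passed the test against DCs in 6G- BM-MDSC and not in MDSC (conv.), Selp, higher in both MDSC cultures, and Itgb7 and Itgb5, lower in both. Promoters were taken from RefSeq on GRCm38.p6, where 22 of the 36 genes were matched, as the 150 bases before the annotated start. Capitals mark GAGGAA, the core read by the myeloid factor PU.1 and other ETS proteins, and GGGCGG, the GC box, on either strand, so that their reverse complements TTCCTC and CCGCCC are capitals too. The windows are chr7:128062490-128062639 on the plus strand for Itgam, chr1:164115114-164115263 on the plus strand for Selp, chr15:102231936-102232085 on the minus strand for Itgb7 and chr16:33829515-33829664 on the plus strand for Itgb5.
Itgam: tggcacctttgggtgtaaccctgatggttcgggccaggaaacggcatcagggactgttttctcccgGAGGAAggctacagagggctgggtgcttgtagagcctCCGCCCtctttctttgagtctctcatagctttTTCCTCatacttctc
Selp: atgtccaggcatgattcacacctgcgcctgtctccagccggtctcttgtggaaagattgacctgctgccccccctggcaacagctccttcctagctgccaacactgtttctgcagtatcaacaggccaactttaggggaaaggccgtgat
Itgb7: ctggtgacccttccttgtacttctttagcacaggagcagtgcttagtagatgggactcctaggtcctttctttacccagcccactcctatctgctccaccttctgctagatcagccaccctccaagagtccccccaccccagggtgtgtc
Itgb5: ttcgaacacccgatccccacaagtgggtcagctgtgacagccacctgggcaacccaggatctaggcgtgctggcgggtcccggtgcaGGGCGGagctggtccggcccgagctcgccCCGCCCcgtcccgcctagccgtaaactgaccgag

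In the Itgam window, GAGGAA began 84 bases before the start on the printed strand and its reverse complement 15 bases before it, with a GC box at 47 bases. Itgb5 held GC boxes at 63 and 34 bases, and the Selp and Itgb7 windows held neither run of letters. The matched genes had 24 promoters. GAGGAA was found in 9 of these 24, beside 14.5% of all 32851 promoters, and the GC box in 8 of 24, beside 28.6% of all. The 9 with GAGGAA were those of F11r, Itga3, Itga5, Itgam, Itgav, Itgb1, Itga11, Itgb6 and Sele. The last 3 of these genes were above background on no array, and the difference between the shares was not tested. The GATA core AGATAA was found in 0 of 24, beside 5.65% of all, and TATAAA in 1 of 24, that of Sele, beside 7.57% of all. The PU.1 and GC box runs do not overlap each other in the windows shown, and a match describes letters only, not a bound site.

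Among the 8 beta chains, of which 7 were tested, Itgb3 stood highest above DCs and Itgb7 lowest below them. Itgb3 encodes the chain that forms the platelet fibrinogen receptor with Itga2b and the vitronectin receptor with Itgav. Its probe lies at chr11:104531672-104531731 on mm9. Itgb3 had log2 signals of 2.79 and 2.96 in 6G- BM-MDSC and 2.62 and 2.86 in MDSC (conv.), against -0.46 and -0.31 in DCs. The arrays of each MDSC culture lay far above those of DCs, while the MDSC cultures overlapped each other. Itgb3 was 9.57-fold higher in 6G- BM-MDSC than in DCs (log2 difference 3.26, SE 0.13, limma, Benjamini-Hochberg adjusted p = 0.00029) and 8.73-fold higher in MDSC (conv.) (3.13, SE 0.13, adjusted p = 0.00033). Itga2b, its platelet partner and no member of the set, was higher by 2.27 in 6G- BM-MDSC and by 2.16 in MDSC (conv.).

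Itgb7 pairs with Itga4 in gut homing and with Itgae on cells that hold on to E-cadherin. Its probe lies at chr15:102046450-102046509 on mm9. Itgb7 had log2 signals of 3.18 and 2.99 in 6G- BM-MDSC and 2.82 and 2.80 in MDSC (conv.), against 4.92 and 4.72 in DCs. All DC arrays lay above all MDSC arrays, and the 6G- BM-MDSC arrays lay above those of MDSC (conv.). Itgb7 was 3.34-fold lower in 6G- BM-MDSC than in DCs (log2 difference -1.74, SE 0.11, limma, Benjamini-Hochberg adjusted p = 0.0009) and 4.03-fold lower in MDSC (conv.) (-2.01, SE 0.11, adjusted p = 0.00065).

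The other beta chains moved less. Itgb5, which pairs with Itgav in the uptake of dying cells, was lower by a log2 difference of -0.75 in 6G- BM-MDSC (SE 0.15, limma, adjusted p = 0.0214) and -0.93 in MDSC (conv.) (adjusted p = 0.0125). Itgb2, the shared chain of the leukocyte integrins, was higher by 0.43 in 6G- BM-MDSC (SE 0.08, adjusted p = 0.0153) and 0.34 in MDSC (conv.) (adjusted p = 0.0303), with all MDSC arrays above all DC arrays. Itgb1, the common partner of the matrix-binding alpha chains, was lower in MDSC (conv.) by -0.31 (SE 0.08, adjusted p = 0.0484) and had -0.25 in 6G- BM-MDSC (adjusted p = 0.0752). Itgb8, which with Itgav frees active TGF-beta, was not well above background on either DC array. In MDSC (conv.) it was higher by at least 1.11-fold (adjusted p = 0.036), while its difference of 0.60 in 6G- BM-MDSC did not pass (adjusted p = 0.0704). The other Itgb8 probes were above background on no array and were not tested, so the call rests on a single probe. Itgb4, the chain of epithelial hemidesmosomes, had differences of -0.19 and -0.24 that did not pass in 6G- BM-MDSC and MDSC (conv.). Itgb6, an epithelial chain, was not above background on any array. Left-out arrays ended several of these calls: Itgb5 without DCs replicate 2 (adjusted p = 0.087 and 0.0568) and without replicate 1 of the MDSC culture compared (0.0737 and 0.061), Itgb2 in 6G- BM-MDSC without either array of 6G- BM-MDSC or DCs (0.0575 to 0.0735), and Itgb2 and Itgb1 in MDSC (conv.) whichever single array was left out (0.057 to 0.124 and 0.0719 to 0.185). Itgb8 lost its call without every array but DCs replicate 2 (0.0653 to 0.135) and with normexp background correction (difference 0.20, adjusted p = 0.127).

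Of the 16 alpha chains, 12 were tested, and Itga8 and Itgad had the largest differences from DCs. Itga8 pairs with Itgb1 and is known best from the mesenchyme of the developing kidney, where it binds nephronectin. Its probe lies at chr2:12028462-12028521 on mm9. Itga8 had log2 signals of -3.19 and -3.37 in 6G- BM-MDSC and -4.02 and -3.44 in MDSC (conv.), against -6.32 and -7.10 in DCs, where neither array was well above background. The groups did not overlap, and only a bound can be given against DCs. Set against the lowest signal that counted as well above background on each array, the Itga8 level in 6G- BM-MDSC was at least 2.88-fold higher (limma, Benjamini-Hochberg adjusted p = 0.0025) and that in MDSC (conv.) at least 2.11-fold higher (adjusted p = 0.0038). The measured means were -3.28 in 6G- BM-MDSC and -3.73 in MDSC (conv.), against -6.71 in DCs, a value not above background on which these p-values rest.

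Itgad encodes a chain that pairs with Itgb2 on macrophages. Its probe lies at chr7:135348901-135348960 on mm9. Itgad had log2 signals of -6.35 and -6.37 in 6G- BM-MDSC and -5.75 and -5.77 in MDSC (conv.), none of them well above background, against -4.20 and -4.25 in DCs. It was the only tested member above background in DCs alone. Itgad was at least 2.30-fold lower in 6G- BM-MDSC (limma, Benjamini-Hochberg adjusted p = 0.0002) and at least 2.22-fold lower in MDSC (conv.) (adjusted p = 0.0004), and no fold is given between the MDSC cultures. The measured means behind these p-values were -6.36 in 6G- BM-MDSC and -5.76 in MDSC (conv.), both not above background, against -4.23 in DCs. A dimmer Itgad probe was above background on DCs replicate 2 alone and was not tested. It read -6.07 and -4.66 in DCs, against -6.23 and -7.65 in 6G- BM-MDSC and -6.30 and -6.44 in MDSC (conv.). With normexp background correction the adjusted p of Itga8 and Itgad stayed under the threshold, but the differences shrank to 0.91 and 0.64 for Itga8 and -0.37 and -0.40 for Itgad in 6G- BM-MDSC and MDSC (conv.), less than the bounds above, which hold for the processed intensities alone.

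Itgam encodes CD11b, the chain by which myeloid cells are gated, and pairs with Itgb2 to bind complement, fibrinogen and Icam1. It had log2 signals of 4.98 and 5.17 in 6G- BM-MDSC and 4.71 and 4.86 in MDSC (conv.), against 4.57 and 4.68 in DCs. Each culture's arrays lay apart from the next. Its difference from DCs was 0.45 in 6G- BM-MDSC (SE 0.11, limma, adjusted p = 0.0318) and 0.16 in MDSC (conv.) (adjusted p = 0.312), and the difference between the 2 cultures did not pass (0.29, adjusted p = 0.438). A dimmer Itgam probe passed in neither, with 0.38 in 6G- BM-MDSC (adjusted p over all probes = 0.0753) and 0.45 in MDSC (conv.) (0.0537). Itgae, the E-cadherin receptor that marks a subset of DCs, was lower by -0.44 in 6G- BM-MDSC (SE 0.09, adjusted p = 0.0236) and -0.82 in MDSC (conv.) (adjusted p = 0.0046). Its ligand Cdh1, no member, was also lower, by -1.27 in 6G- BM-MDSC and -0.99 in MDSC (conv.), and Itgax, the CD11c chain used to define DCs, by -0.88 and -0.86. Itga1, a collagen receptor chain, was higher in MDSC (conv.) by 0.35 (SE 0.09, adjusted p = 0.0396), and its 0.17 in 6G- BM-MDSC did not pass (adjusted p = 0.192). Itgav, the vitronectin receptor chain, was lower by -0.35 in 6G- BM-MDSC (SE 0.08, adjusted p = 0.0257) and -0.40 in MDSC (conv.) (adjusted p = 0.0195). A dimmer Itgav probe ran the other way, with 0.60 in 6G- BM-MDSC (adjusted p over all probes = 0.0306) and 0.43 in MDSC (conv.) (0.076), and with the mean of all its probes the gene had -0.08 and -0.07. For the members called, 11 of 12 other tested probes had the direction of the brightest in 6G- BM-MDSC and 17 of 18 in MDSC (conv.), Itgav being the exception in both.

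Left-out arrays ended the smaller alpha-chain calls. Itgam lost its call in 6G- BM-MDSC without every array but 6G- BM-MDSC replicate 1 (adjusted p = 0.0502 to 0.129), and Itgae in 6G- BM-MDSC without 6G- BM-MDSC replicate 2, DCs replicate 1 or DCs replicate 2 (0.0863 to 0.0965). Itgav in 6G- BM-MDSC and Itga1 in MDSC (conv.) lost theirs whichever single array was left out (0.0504 to 0.108 and 0.0542 to 0.156), and Itgav in MDSC (conv.) without either array of MDSC (conv.) or DCs (0.0732 to 0.0908). The tested alpha chains that passed in neither comparison were Itgal, which makes LFA-1 with Itgb2, and the partners of Itgb1 that bind matrix or Vcam1, Itga3, Itga4, Itga5, Itga6 and Itga10. Their differences from DCs ran between -0.29 for Itga10 and 0.09 for Itga6 in 6G- BM-MDSC and between -0.37 for Itga4 and -0.02 for Itga3 in MDSC (conv.). For Itga4, which pairs with Itgb1 or Itgb7, the adjusted p in MDSC (conv.) was 0.0612. These ranges are those of the brightest probes, and dimmer probes of 5 of the 6 genes had an adjusted p over all probes under the threshold. A dimmer Itga4 probe had -1.22 in 6G- BM-MDSC (0.0014) and -1.08 in MDSC (conv.) (0.0019), and another had -0.56 in MDSC (conv.) (0.0135). A dimmer Itga3 probe had -0.52 in 6G- BM-MDSC (0.0119) and -0.77 in MDSC (conv.) (0.0043). In 6G- BM-MDSC a dimmer Itgal probe had -0.99 (0.0113) and a dimmer Itga6 probe -0.42 (0.0216). The dimmer Itga10 probe was above background on no DC array and had measured differences of 1.71 in 6G- BM-MDSC (0.0052) and 1.88 in MDSC (conv.) (0.0043), against the direction of its brightest probe. Itga2 and Itga11, collagen receptor chains, were above background on no array, and Itga7, a laminin receptor chain of muscle, and Itga9, a partner of Itgb1, on 1 array each.

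**Figure D2:**
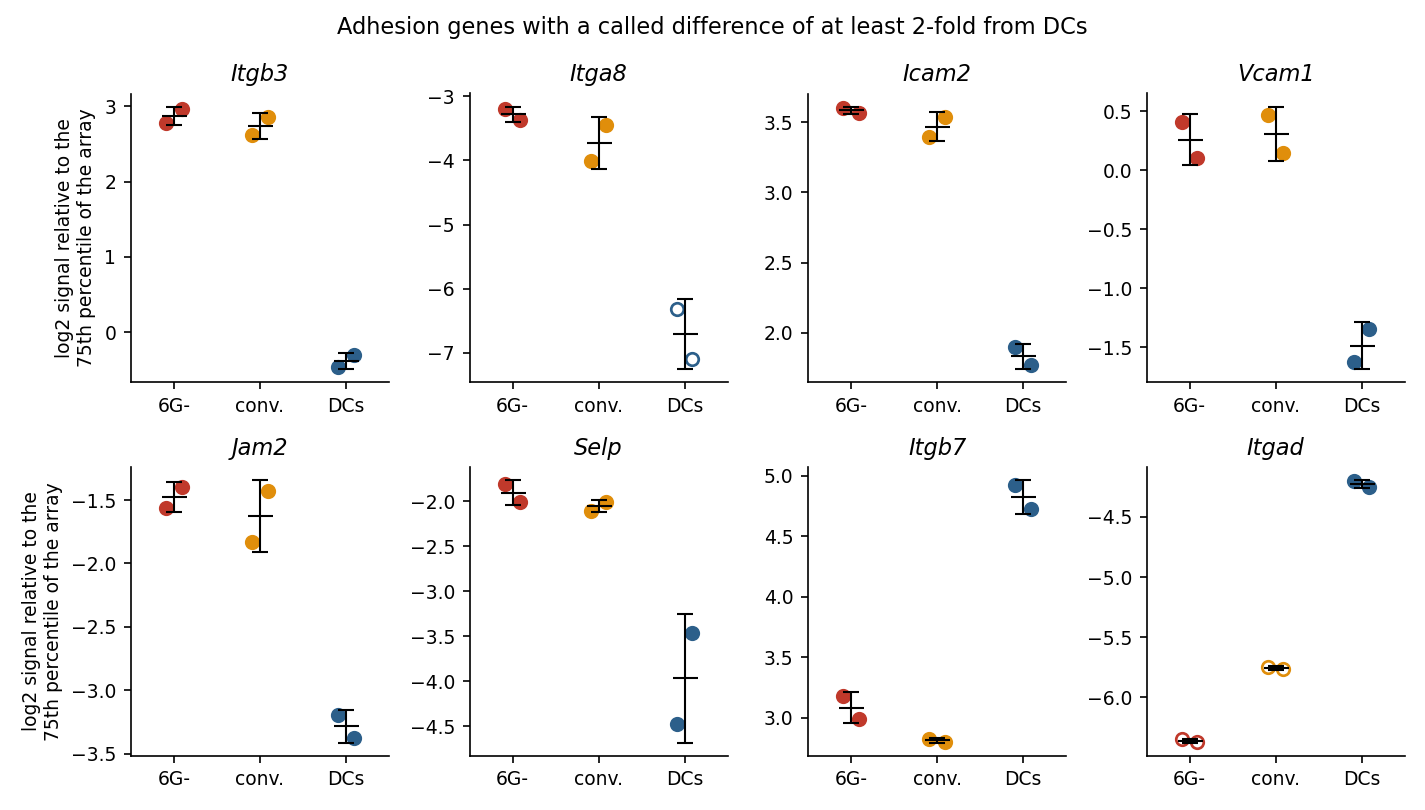
Log2 signal relative to the array's 75th percentile (y axis, a separate range in each panel) on the 2 arrays of 6G- BM-MDSC (red), MDSC (conv.) (orange) and DCs (blue), for the 8 genes called at 2-fold or more against DCs in both comparisons. Points are arrays, open where no array of the group was well above background, and black bars are the mean ± SD (n = 2 arrays); Itgb7 and Itgad sit highest in DCs and the other 6 lowest there.

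Selp was the only selectin of the set with a signal. P-selectin is stored in platelets and endothelial cells and comes to the surface on activation, where it catches Selplg on leukocytes. Its probe lies at chr1:166079660-166079719 on mm9. Selp had log2 signals of -1.81 and -2.01 in 6G- BM-MDSC and -2.11 and -2.01 in MDSC (conv.), against -4.47 and -3.46 in DCs. The MDSC arrays lay close together and all above the DC arrays, which differed from each other by more than the MDSC arrays did. Selp was 4.17-fold higher in 6G- BM-MDSC (log2 difference 2.06, SE 0.33, limma, Benjamini-Hochberg adjusted p = 0.0117) and 3.76-fold higher in MDSC (conv.) (1.91, SE 0.33, adjusted p = 0.0154). The call was lost without either array of the MDSC culture compared (adjusted p = 0.0532 without 6G- BM-MDSC replicate 1, 0.051 without 6G- BM-MDSC replicate 2, 0.0663 without MDSC (conv.) replicate 1 and 0.0835 without MDSC (conv.) replicate 2), and with normexp background correction the difference was 1.04 in 6G- BM-MDSC and 0.90 in MDSC (conv.). Selplg itself had log2 signals of 5.98 and 5.80 in 6G- BM-MDSC and 5.92 and 5.75 in MDSC (conv.), against 6.12 and 6.30 in DCs. All DC arrays were higher, yet the differences of -0.33 in 6G- BM-MDSC and -0.38 in MDSC (conv.) did not pass (SE 0.12, adjusted p = 0.0923 and 0.0688). Sele, the selectin of inflamed endothelium, was above background on no array.

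Among the 7 ligands and junction molecules of the immunoglobulin family, Icam2, Vcam1, Jam2 and Pecam1 were higher in both MDSC cultures than in DCs. Icam2 is a ligand of LFA-1 present without inflammation on endothelium, platelets and leukocytes, and its probe lies at chr11:106238971-106239030 on mm9. Icam2 had log2 signals of 3.60 and 3.57 in 6G- BM-MDSC and 3.40 and 3.54 in MDSC (conv.), against 1.90 and 1.77 in DCs. The groups did not overlap, and the largest step was the one to DCs. Icam2 was 3.38-fold higher in 6G- BM-MDSC (log2 difference 1.76, SE 0.09, limma, Benjamini-Hochberg adjusted p = 0.0006) and 3.11-fold higher in MDSC (conv.) (1.64, SE 0.09, adjusted p = 0.0007).

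Vcam1, the ligand of Itga4 with Itgb1, is known in marrow from stroma, endothelium and macrophages, and its probe lies at chr3:115813216-115813275 on mm9. Vcam1 had log2 signals of 0.41 and 0.11 in 6G- BM-MDSC and 0.47 and 0.15 in MDSC (conv.), against -1.63 and -1.35 in DCs. The MDSC cultures overlapped each other and lay apart from DCs. Vcam1 was 3.35-fold higher in 6G- BM-MDSC (log2 difference 1.74, SE 0.18, limma, Benjamini-Hochberg adjusted p = 0.0033) and 3.47-fold higher in MDSC (conv.) (1.80, SE 0.18, adjusted p = 0.0032).

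Jam2, a junction molecule that binds Jam3 and Itga4 with Itgb1, was read by a probe at chr16:84821508-84823051 on mm9, a span longer than the probe itself. Jam2 had log2 signals of -1.56 and -1.39 in 6G- BM-MDSC and -1.83 and -1.43 in MDSC (conv.), against -3.19 and -3.37 in DCs. Again the MDSC cultures overlapped each other and not DCs. Jam2 was 3.50-fold higher in 6G- BM-MDSC (log2 difference 1.81, SE 0.16, limma, Benjamini-Hochberg adjusted p = 0.0023) and 3.15-fold higher in MDSC (conv.) (1.66, SE 0.16, adjusted p = 0.0031). With normexp background correction its difference was 1.03 in 6G- BM-MDSC and 0.92 in MDSC (conv.).

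Pecam1, which binds itself between leukocytes, platelets and endothelium, was higher by 0.77 in 6G- BM-MDSC (SE 0.11, limma, adjusted p = 0.0083) and 0.81 in MDSC (conv.) (adjusted p = 0.0077), a call lost in MDSC (conv.) without MDSC (conv.) replicate 2 (adjusted p = 0.0512). Icam1, the ligand of LFA-1 that inflammation induces, went the other way from Icam2. It had log2 signals of 5.28 and 5.02 in 6G- BM-MDSC and 4.90 and 4.86 in MDSC (conv.), against 5.46 and 5.53 in DCs. All DC arrays were higher, and the difference passed in MDSC (conv.) (-0.61, SE 0.11, adjusted p = 0.0165) but not in 6G- BM-MDSC (-0.34, adjusted p = 0.0694). The Icam1 call was lost without either array of MDSC (conv.) or DCs (adjusted p = 0.062 to 0.0855). F11r, a junction molecule that binds LFA-1, had -0.75 in 6G- BM-MDSC and -0.84 in MDSC (conv.) (SE 0.25), and neither passed (adjusted p = 0.0749 and 0.0607). Its DC arrays, at 1.90 and 2.63, lay apart from each other and above the MDSC arrays, at 1.34 to 1.56. Jam3, which binds Jam2 and Itgam with Itgb2, had differences of -0.65 and -0.23 that did not pass in 6G- BM-MDSC and MDSC (conv.), and was well above background on 4 of 6 arrays.

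Cd44, which binds hyaluronan and carries selectin ligands on leukocytes, was higher by 0.37 in 6G- BM-MDSC (SE 0.08, limma, adjusted p = 0.0298) and 0.54 in MDSC (conv.) (adjusted p = 0.0115). Its arrays read 3.88 and 4.04 in 6G- BM-MDSC and 4.15 and 4.11 in MDSC (conv.), against 3.57 and 3.61 in DCs, with no overlap between groups. The Cd44 call was lost in 6G- BM-MDSC without every array but 6G- BM-MDSC replicate 1 (adjusted p = 0.057 to 0.119) and in MDSC (conv.) without either array of MDSC (conv.) or DCs (0.0521 to 0.0585). Cd9, a tetraspanin that gathers integrins into membrane patches, lay between 5.56 and 5.87 on all 6 arrays, with differences from DCs of -0.06 in 6G- BM-MDSC and -0.15 in MDSC (conv.) that did not pass (SE 0.11).

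Depleting Ly-6G+ cells from the marrow before culture was the question of the comparison between the MDSC cultures. Of the 30 tested adhesion genes, 0 were higher and 0 lower in 6G- BM-MDSC than in MDSC (conv.) (limma, smallest adjusted p = 0.214, that of Itgad, which was above background in neither culture), beside 0.00457% of all genes called higher and 0.00915% called lower. Among the 29 genes above background in an MDSC culture the smallest adjusted p was 0.337, that of Itgae. At an unadjusted p under 0.05 there were 5 of 30, Itga5, Itgad, Itgae, Itgal and Itgam, beside 10.8% of all genes. By the methods' test there were 2 of 30 before and 0 after Benjamini-Hochberg adjustment, beside 1781 and 0 of all 21860 genes. Without Itgad, for 12 of the 29 genes each array of 6G- BM-MDSC read higher than each of MDSC (conv.), for 4 each read lower, and 13 overlapped. The differences of the 29 were positive for 22 genes and negative for 7, with a median of 0.09, beside 0.00 over all genes. The shares of all genes with arrays apart or with a positive difference were not computed. The counts of arrays apart and of signs are therefore not read as a result about these genes.

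The largest positive differences between the MDSC cultures were 0.45 (SE 0.32) for Itga8, 0.37 (SE 0.09) for Itgae and 0.29 (SE 0.11) for Itgam. Itgae had log2 signals of 1.03 and 0.86 in 6G- BM-MDSC, against 0.51 and 0.62 in MDSC (conv.). Itgal, the LFA-1 chain, read 1.60 on both 6G- BM-MDSC arrays, against 1.41 and 1.40 on those of MDSC (conv.), a difference of 0.19 (SE 0.07). For these genes the arrays of the brightest probe did not overlap, and none of the differences passed the test. Dimmer probes had the same direction for Itgae, with 0.29, and the opposite direction for the other 3. The dimmer Itgal probe read -4.36 and -4.54 in 6G- BM-MDSC, against -3.53 and -3.94 in MDSC (conv.), a difference of -0.71 (SE 0.16, adjusted p over all probes = 0.326). The dimmer Itgam probe had -0.07, and that of Itga8, above background on 1 of the 2 arrays of 6G- BM-MDSC, had -0.50. Over the 17 genes with further tested probes, 20 of 30 such probes had the direction of the brightest. Jam3 had the largest negative one among genes above background in a culture, -0.42 (SE 0.22), and Itgb3, Vcam1, Pecam1 and Jam2, which stood apart from DCs, had 0.13, -0.05, -0.04 and 0.15.

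**Figure D3:**
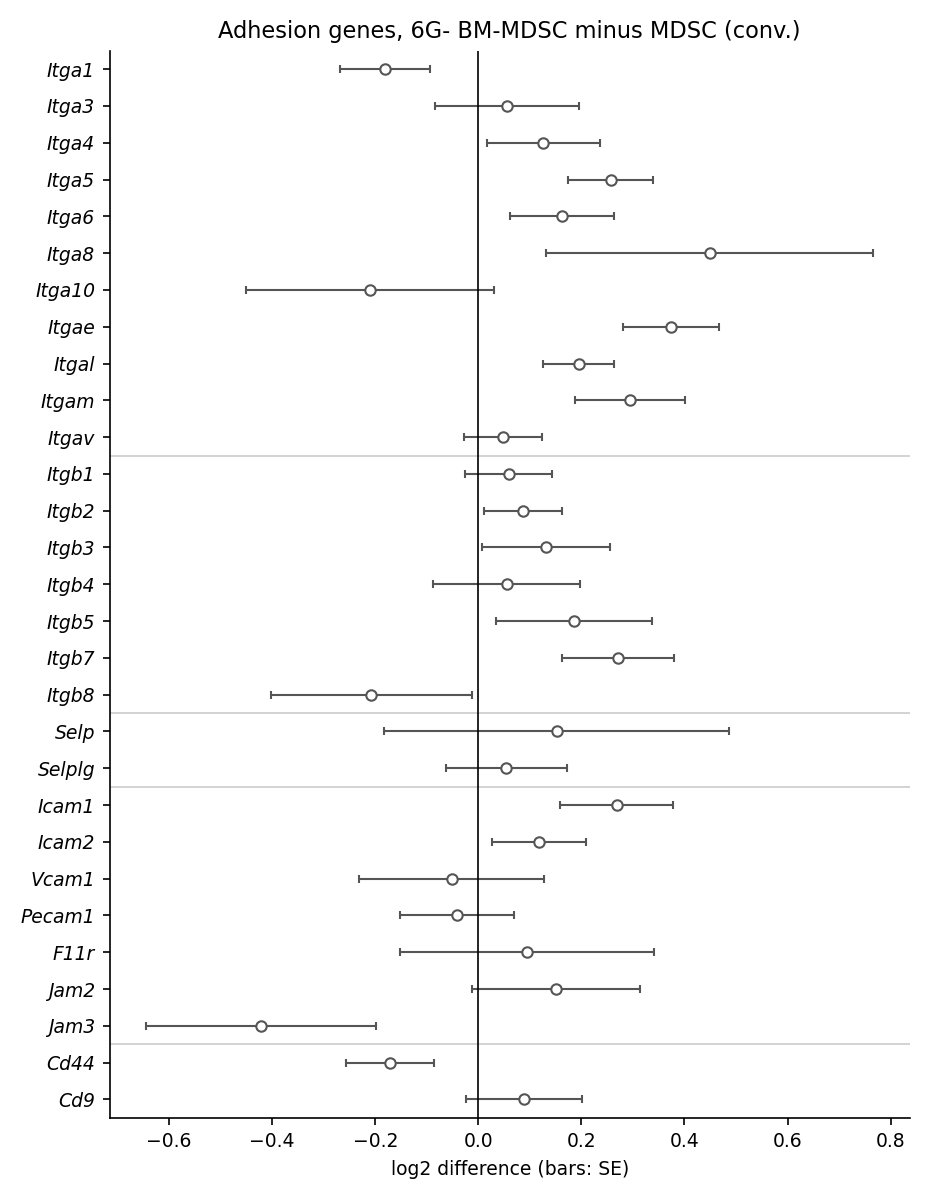
Log2 difference, 6G- BM-MDSC minus MDSC (conv.) (x axis), of the 29 tested adhesion genes above background in an MDSC culture (rows, grouped by role), with bars for the SE of the fit (n = 2 arrays a group). All points are open because 0 genes had an adjusted p under 0.05, and they run from -0.42 for Jam3 to 0.45 for Itga8.

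Genes that switch integrins on, carry their signals, build selectin ligands or serve as their ligands were counted as 5 further lists, none of which had a gene called between the MDSC cultures. Their counts stand beside 15.0% of all genes called higher and 17.8% called lower in 6G- BM-MDSC, and 13.4% and 15.8% in MDSC (conv.). A gene of these lists given with a bound entered the test through groups in which it was high, so a difference was built into its selection. Such genes remain in the counts, and their bounds hold for the processed intensities alone. Of 27 tested genes of integrin activation and linkage to actin, 6 were higher and 5 lower than in DCs for 6G- BM-MDSC, and 4 higher and 4 lower for MDSC (conv.). Rasgrp2, the exchange factor that activates Rap1 in platelets and neutrophils, was higher by 2.91 in 6G- BM-MDSC and 2.99 in MDSC (conv.) (limma, adjusted p = 0.0002 for each). Rapgef3, a Rap1 exchange factor driven by cyclic AMP, was at least 8.41-fold and at least 10.3-fold higher, with no DC array well above background. Vcl, the actin linker vinculin, was higher by 0.88 and 0.95, and Dok1, an adaptor that restrains integrin activation, was lower by -1.22 and -0.99. Talin and kindlin genes were not among those called except Tln2, at 0.81 in MDSC (conv.) (adjusted p = 0.0308), with 0.51 in 6G- BM-MDSC (0.0899).

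Of 19 signalling kinases and adaptors, 7 were higher and 5 lower in 6G- BM-MDSC, and 5 and 5 in MDSC (conv.). Ptk2, the focal adhesion kinase, was lower by -1.39 in each culture, and Src by -0.96 in 6G- BM-MDSC and -1.34 in MDSC (conv.). Fyb, an adaptor of integrin signalling, was higher by 0.90 and 0.75. Among the 12 genes of selectin ligand synthesis, 5 were higher and 3 lower in 6G- BM-MDSC, and 3 and 3 in MDSC (conv.). The sialyltransferase St3gal6 was higher by 1.77 in 6G- BM-MDSC and 1.45 in MDSC (conv.), while St3gal3 was lower by -0.88 and -0.93. The sulfotransferases that act on Selplg moved apart, with Tpst2 higher by 0.71 and 0.72 and Tpst1 lower by -0.71 and -0.74.

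Of 18 matrix and soluble ligands only 8 were tested, of which 3 were higher and 2 lower in 6G- BM-MDSC, and 2 and 2 in MDSC (conv.). Thbs1, the thrombospondin of platelets and macrophages, was higher by 1.95 in 6G- BM-MDSC and 2.12 in MDSC (conv.). Col1a1, a chain of type I collagen, was at least 7.06-fold and at least 8.30-fold higher, with no DC array well above background. Mfge8, which bridges dying cells to Itgav with Itgb3 or Itgb5, was lower by -1.24 and -0.86, and Nid1, a basement membrane protein, was lower by -0.90 in 6G- BM-MDSC and at least 2.47-fold lower in MDSC (conv.), where no array was well above background. Among 30 tested adhesion receptors outside the set, 13 were higher and 11 lower in 6G- BM-MDSC, and 11 and 10 in MDSC (conv.). Itgb2l, a mouse beta chain close to Itgb2, was higher by 3.65 and 3.85, and Cxadr, a junction molecule, was at least 1.96-fold and at least 3.86-fold higher. Epcam, the epithelial adhesion molecule, was lower by -3.05 and -2.29. The medians of the 5 lists lay between -0.39 and 0.21 in either comparison, beside -0.04 in 6G- BM-MDSC and -0.03 in MDSC (conv.) over all genes.

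**Figure D4:**
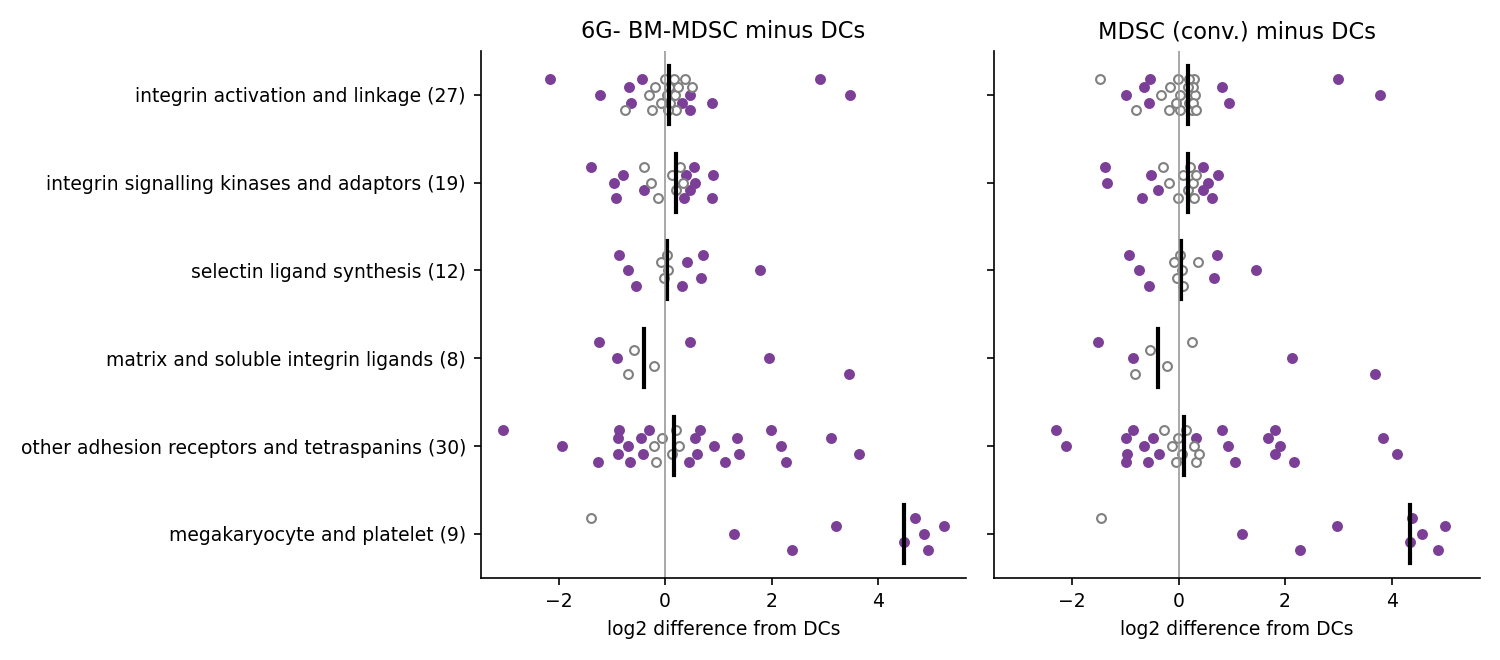
Log2 difference from DCs (x axis) for the tested genes of 5 adhesion-related lists and of the megakaryocyte and platelet markers (rows, number of tested genes in brackets), for 6G- BM-MDSC minus DCs (left) and MDSC (conv.) minus DCs (right). Filled points have an adjusted p under 0.05 and black lines are medians, which lie at 4.49 and 4.34 for the platelet markers and between -0.39 and 0.21 for the other lists.

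Markers of other cell types moved together with several of these genes. Of 9 megakaryocyte and platelet markers, 9 were well above background on both arrays of 6G- BM-MDSC and of MDSC (conv.), against 5 in DCs, where Gp5 and Mmrn1 were above it on no array. Their summed signal, in multiples of the array's 75th percentile, was 42.3 to 44.3 in 6G- BM-MDSC and 35.5 to 41.2 in MDSC (conv.), against 8.64 to 12.7 in DCs. In each comparison 8 of 9 were called higher. Among those called, Gp1ba, Gp9, Gp5 and Mmrn1 entered the test only through the MDSC cultures, so a difference was built into their selection. Itgb3, Selp, Icam2, Pecam1, Itga2b and Rasgrp2 are also expressed by platelets, and the part of platelet or megakaryocyte RNA in their differences was not tested. Of 8 basophil and mast cell markers, all were above background in every group, with sums of 81.8 to 85.7 in 6G- BM-MDSC and 88.0 to 88.4 in MDSC (conv.), against 13.1 to 17.1 in DCs, and all 8 were called higher in each comparison. The 12 neutrophil markers summed to 1329 to 1564 in 6G- BM-MDSC and 1612 to 1661 in MDSC (conv.), against 553 to 566 in DCs, and 10 of the 12 were called higher in each comparison, with median differences of 3.73 in 6G- BM-MDSC and 3.92 in MDSC (conv.). The 10 dendritic cell markers summed to 853 to 917 in 6G- BM-MDSC and 887 to 899 in MDSC (conv.), against 1512 to 1557 in DCs. Of the 10, 8 were called lower in each comparison, while 2 were called higher in 6G- BM-MDSC and 1 in MDSC (conv.). Those higher were Clec9a, by 1.59 in 6G- BM-MDSC and 1.21 in MDSC (conv.), and Flt3, by 0.50 in 6G- BM-MDSC. For Itgb7, Itgae and Itgad, which were lower than in DCs, the part of the dendritic cell share was not tested. The 7 monocyte markers summed to 378 to 426 in 6G- BM-MDSC and 389 to 402 in MDSC (conv.), against 208 to 230 in DCs. Of the 7, 2 were called higher and 1 lower in 6G- BM-MDSC, and 1 higher and 2 lower in MDSC (conv.). These sums lean on bright probes such as Ly6c2, with means of 7.84 in 6G- BM-MDSC, 7.96 in MDSC (conv.) and 4.82 in DCs. Fcgr1 was lower by -0.82 in 6G- BM-MDSC and -0.94 in MDSC (conv.), and Csf1r by -0.48 in MDSC (conv.). The 5 eosinophil markers summed to 84.0 to 97.5 in 6G- BM-MDSC and 92.9 to 102 in MDSC (conv.), against 23.1 to 50.6 in DCs. Of the 5, 1 was called higher and 1 lower in 6G- BM-MDSC, and 2 higher and 1 lower in MDSC (conv.). The 10 lymphocyte markers summed to 9.286 to 10.525 in 6G- BM-MDSC and 9.86 to 11.3 in MDSC (conv.), against 3.41 to 4.35 in DCs. Of the 8 tested, 3 were called higher and 1 lower in 6G- BM-MDSC, and 3 higher and 2 lower in MDSC (conv.). The 6 erythroid markers summed to 0.920 to 1.61 in 6G- BM-MDSC and 0.954 to 1.56 in MDSC (conv.), against 0.366 to 0.376 in DCs, with both tested markers called higher in each comparison. The part of these cell types in the members' differences was not tested.

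For Vcam1, Selp, Jam2 and Icam2, endothelial and stromal markers bear on the same question. Of 7 endothelial markers only 3 were tested, and all 7 summed to 1.62 to 1.80 in 6G- BM-MDSC and 2.25 to 2.37 in MDSC (conv.), against 0.805 to 0.966 in DCs. Of these markers, Cdh5, Tek, Emcn and Tie1 were not above background on both arrays of any group, while Kdr, Plvap and Egfl7 were above it on all 6 arrays. The 1 called endothelial marker was Egfl7, a factor secreted by endothelium, higher by 1.25 in 6G- BM-MDSC (adjusted p = 0.0018) and 1.71 in MDSC (conv.) (0.0008), while Kdr had -0.42 and -0.09 and Plvap 0.18 and 0.19. Of 7 stromal markers 3 were tested, and all 7 summed to 0.204 to 0.262 in 6G- BM-MDSC and 0.183 to 0.314 in MDSC (conv.), against 0.212 to 0.242 in DCs. None of the 3 was called in either comparison. Pdgfrb, a receptor of stromal cells, was above background on both arrays of each MDSC culture and on no DC array, with measured differences of 1.13 in 6G- BM-MDSC (adjusted p = 0.101) and 1.55 in MDSC (conv.) (0.0507), and Col1a1, which stromal cells make in large amounts, was higher as given above. The part of endothelial or stromal RNA in the differences of Vcam1, Selp, Jam2 and Icam2 was not tested. The 9 macrophage markers summed to 176 to 184 in 6G- BM-MDSC and 174 to 182 in MDSC (conv.), against 235 to 254 in DCs, with 6 of 9 called lower in 6G- BM-MDSC and 5 of 9 in MDSC (conv.). Among them the complement genes C1qa, C1qb and C1qc were lower by -4.18, -3.49 and -4.05 in 6G- BM-MDSC and by -4.10, -3.34 and -3.64 in MDSC (conv.). The macrophage sums had the opposite order to Vcam1 and the same as Itgad, and the part of macrophage RNA was not tested.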

How the data were processed

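Total RNA of each sample was hybridised to a one-colour Agilent mouse array. The authors' Feature Extraction software (version 10.5.1.1 in the submitters' notes, 10.7.3.1 in the file headers) subtracted background, and the deposited values are processed intensities with no scaling between arrays. From them, log2 was taken and each array's 75th percentile subtracted, so the log2 values here were computed from the deposited intensities. Spots marked as non-uniform or outliers (103 to 146 an array) were left out, and 0 spots were saturated. All arrays lay on 1 slide and were scanned once. A probe was tested if well above background on both arrays of at least 1 group (33482 of 56605 probes), and each of 21860 genes was read by its brightest probe on average. RefSeq accessions matched 32994 probes and renamed 1535, no adhesion gene among them. Probe coordinates are on mm9.

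The groups were compared with limma 3.58.1 in R 4.3.3 and the R package data.table, version 1.17.8 (lmFit and eBayes, group only, all 6 arrays, residual degrees of freedom 3, prior degrees of freedom 1.96), with Benjamini-Hochberg adjustment over all genes and a threshold of 0.05. Where a group had no array well above background, a fold is a bound set by the dimmest probe that still passed the background call on that array. Members, lists and tests were chosen with earlier results of these data known. Genes called at 2-fold or more are given array by array, Itgam, Itgae, Itgal, Selplg, Icam1, F11r, Cd44 and Cd9 were given so after their values were seen, and up to 4 genes a list were named by the smaller of their differences from DCs among those called in both comparisons, with Itgax, Cdh1 and Tln2 added after their values were seen. Some genes of these lists are counted but not reported by name here. The alternatives tried were background correction by normexp (offset 50), quantile normalization, other filters on dim probes, other ways to combine probes, the use of marked spots, the value table as deposited, a fit to just the arrays compared, a replicate block, an intensity-dependent prior, the methods' test, a 2-fold minimum and each array left out, and, chosen after seeing the data, normexp with a 2-fold minimum.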

Additional observations from a re-analysis of the deposited data

How the results depend on the processing

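No called member changed direction under any alternative run, and 0 members were called between 6G- BM-MDSC and MDSC (conv.) under each of them. Most of these runs read each gene by the same probe, so they could not show a disagreement between probes such as that of Itgav. With each array left out in turn, 6 to 8 members were higher than in DCs and 2 to 5 lower for 6G- BM-MDSC, and 5 to 8 higher and 3 to 6 lower for MDSC (conv.). The methods' test after adjustment gave 0 in every count, beside 66 of all 21860 genes in 6G- BM-MDSC against DCs and 7 in MDSC (conv.) against DCs. A 2-fold minimum, which only removes calls, gave 6 higher and 2 lower in each comparison. The 2-fold minimum with normexp correction, chosen after seeing the data, gave 5 higher and 1 lower in 6G- BM-MDSC and 3 higher and 1 lower in MDSC (conv.). Normexp background correction gave 9 lower in 6G- BM-MDSC, and an intensity-dependent prior gave 9 lower in 6G- BM-MDSC and 11 lower in MDSC (conv.); the cause was not tested. The other alternatives stayed within 1.5 times of each count. Of 33 calls of single members, 32 were kept with normexp correction, 32 with quantile normalization, 29 with all probes of a gene averaged and 26 with only the arrays compared. Normexp correction lost Itgb8, quantile normalization Itgb1, and averaging the probes Itga1, Itgb1 and both Itgav calls. The fit to only the arrays compared lost Itgam, Itgav and Cd44 in 6G- BM-MDSC and Itga1, Itgb1, Itgb2 and Itgb8 in MDSC (conv.).

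Replicate numbers are shared between groups, but same-numbered arrays deviated together only weakly (Pearson r across genes of 0.11 for 6G- BM-MDSC and MDSC (conv.), 0.04 for 6G- BM-MDSC and DCs, 0.12 for MDSC (conv.) and DCs), so the numbers were not taken to pair samples. A replicate block gave 10 higher and 5 lower in 6G- BM-MDSC, and 8 higher and 7 lower in MDSC (conv.), with 29 of 33 calls kept and the calls of Itga1, Itgb1, Itgb2 and Itgb8 in MDSC (conv.) lost. With 2 arrays a group, the number of arrays limits the precision, and genes near background, such as Itga8, Itgad and Itgb8, have only a bound on one side.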
